A study of Rattus norvegicus with 6 samples.

Results

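10 genes of glutathione-dependent detoxification and thiol redox defence were followed in rat knee cartilage after repeated joint compression: the theta-class glutathione transferases Gstt1 and Gstt3, the mu-class transferases Gstm1 and Gstm2, the quinone reductase Nqo1, both subunits of glutamate-cysteine ligase (Gclc and Gclm), the thioredoxin reductase Txnrd1 and the glutathione peroxidases Gpx3 and Gpx4. They were taken by gene name from a count table of 26981 features, all 10 were found, and all 10 passed the filter on low counts. The genes were chosen by family after the fitted change of Gstt3 between these groups, a fall, had been seen, so the loaded against control values of its members are given as a description, without p-values, and none of them is independent evidence of a change in this group of genes.

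RNA came from right-knee articular cartilage of male SD rats that were wild type and 6 weeks old at the start. The control group was not loaded. In the loaded group the right knee and ankle of anaesthetised rats were compressed along the limb axis every 2 days for 4 weeks, in sessions of 40 cycles of 10 s, each holding 5 N for 9 s and then a peak of 20 N for 0.5 s. Each group had 3 libraries, from an experiment of 70 rats in 7 groups. Whether each library came from a separate rat is not stated, so tests below measure the spread between libraries, which may be technical. The load figures and the identity of the unloaded group come from the study design, and the labels of the loaded libraries name only excessive mechanical load.

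Glutathione is a small thiol peptide that cells use against oxidants and reactive chemicals. Glutamate-cysteine ligase makes its precursor in the rate-limiting step, glutathione transferases couple it to electrophiles, and glutathione peroxidases spend it to reduce peroxides, while thioredoxin reductase drives a parallel thiol system. Many of these genes carry antioxidant response elements and are induced by the transcription factor Nrf2 (Nfe2l2), which Keap1 holds in check, and chondrocytes rely on this system to limit oxidative damage in osteoarthritis.

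The libraries held 28435307 to 40332904 counts, and 5895 of 16447 tested genes (35.8%) changed between the groups by edgeR (quasi-likelihood test, Benjamini-Hochberg adjusted p below 0.05). Erythroid marker transcripts took a larger part of the libraries than cartilage marker transcripts. The 16 cartilage markers, none at 0, took 0.204% to 0.221% of counts in control and 0.295% to 0.323% in loaded libraries, against 11.2% to 12.3% and 10.49% to 11.4% for 8 erythroid markers. In such mixed tissue, fewer cells of a type and less RNA per cell cannot be told apart.

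Promoters of 3 of the genes are shown first: that of Gstt3, whose level differed most between the groups, and those of Txnrd1 and Gclm, the members in whose promoter windows the core of an antioxidant response element was found. Each window runs from 250 bases before to 50 bases after a RefSeq transcription start (GRCr8) and is written 5′ to 3′ on the strand of the gene, with capitals marking the match. The Gstt3 window lies at chr20:12874368-12874667 on the plus strand, that of Txnrd1 at chr7:22755855-22756154 on the minus strand and that of Gclm at chr2:213031885-213032184 on the plus strand.
Gstt3: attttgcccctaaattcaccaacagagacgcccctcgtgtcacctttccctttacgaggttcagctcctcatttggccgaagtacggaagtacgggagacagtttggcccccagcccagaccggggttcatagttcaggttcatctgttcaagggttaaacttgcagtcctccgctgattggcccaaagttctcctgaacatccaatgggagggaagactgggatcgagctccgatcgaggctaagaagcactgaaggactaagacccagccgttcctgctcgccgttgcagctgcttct
Txnrd1: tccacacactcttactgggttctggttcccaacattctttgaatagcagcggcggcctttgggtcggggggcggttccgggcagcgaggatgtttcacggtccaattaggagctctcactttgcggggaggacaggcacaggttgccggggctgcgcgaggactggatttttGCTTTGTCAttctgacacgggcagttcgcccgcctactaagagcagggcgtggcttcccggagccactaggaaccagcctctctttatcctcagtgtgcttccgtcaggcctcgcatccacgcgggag
Gclm: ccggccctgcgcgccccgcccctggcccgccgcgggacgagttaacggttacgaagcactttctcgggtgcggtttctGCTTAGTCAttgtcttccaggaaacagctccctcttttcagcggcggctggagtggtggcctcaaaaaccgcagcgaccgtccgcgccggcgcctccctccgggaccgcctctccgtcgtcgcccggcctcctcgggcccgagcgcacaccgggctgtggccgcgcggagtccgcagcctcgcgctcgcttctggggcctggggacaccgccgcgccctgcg

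The core searched was TGACNNNGC, read on both strands, so that the matches above appear as GCNNNGTCA. In Gclm the match began at position -172 and in Txnrd1 at position -78 relative to the start. A core was present in 2 of the 12 windows of the 9 members that had one, and in 12.1% of all 33469 windows of the same length. The AP-1 site TGANTCA, whose letters can overlap the core, was in none of the 12 member windows and in 7.33% of all windows. Txnrd1 has a second window without either motif. A match is a description of these letters, and a window without one says nothing about elements further away.

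Beside that share of 35.8% over all tested genes, 6 of the 10 genes passed the threshold: Gstm2 was higher in loaded libraries, where 17.9% of all tested genes rose, and Gstt3, Txnrd1, Gclc, Nqo1 and Gstm1 were lower, where 18% of all tested genes fell. Gstt3 and Gstm2 passed with at least a 2-fold difference, as did 6.59% of all tested genes. The same 6 had groups that did not overlap in CPM (counts scaled to library size with TMM factors), as did 47.9% of all tested genes. The count is not read further, since this contrast prompted the list. Gclm, Gpx3, Gpx4 and Gstt1 did not pass the threshold. Fitted changes ran from -2.66 for Gstt3 to 1.04 for Gstm2 on the log2 scale, with a median of -0.25 where that of all tested genes was 0.00392.

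**Figure D1:**
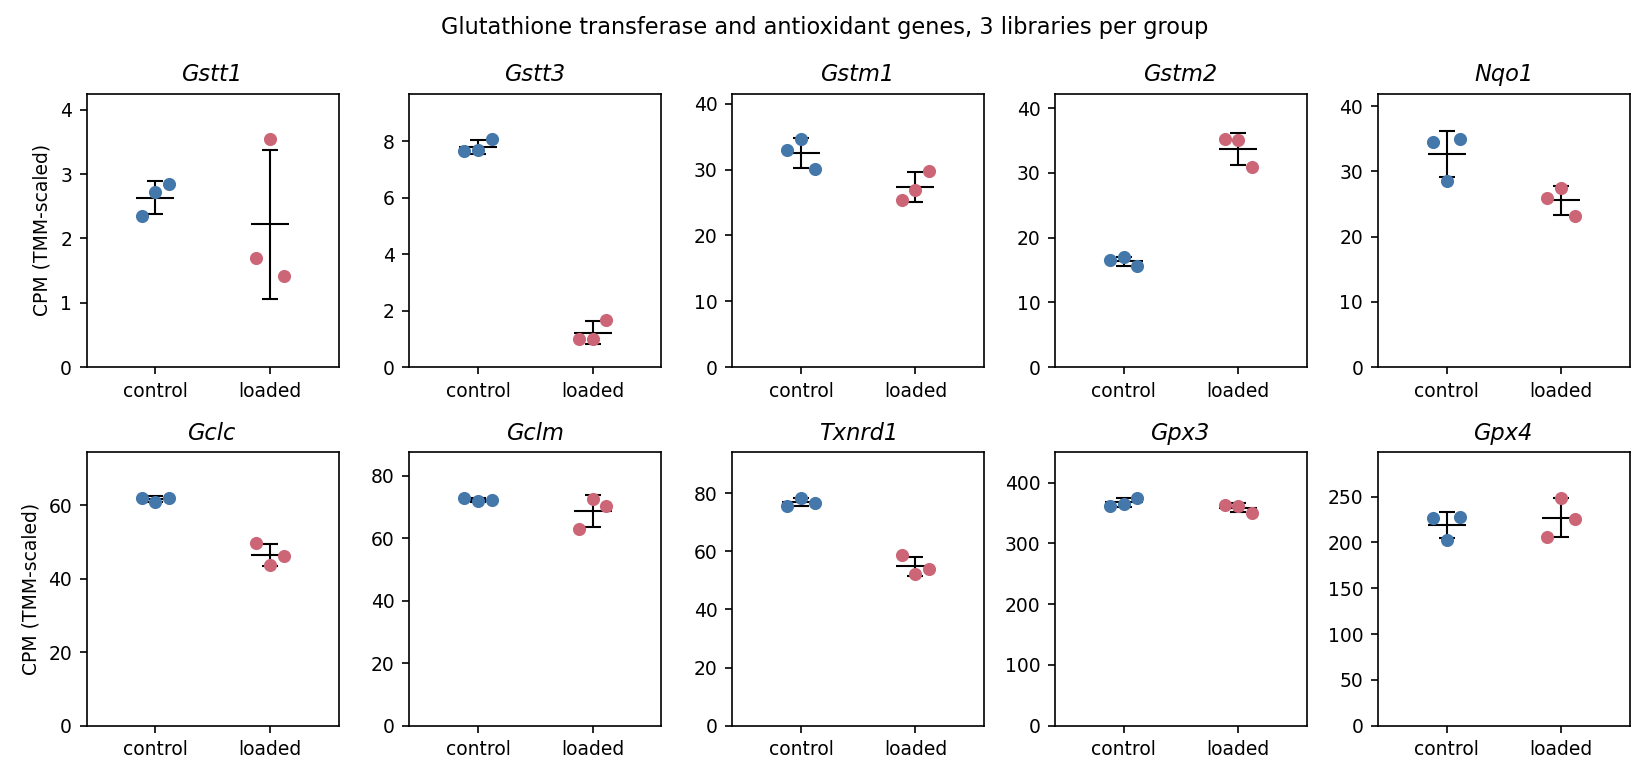
CPM of each of the 10 genes in the 3 control and 3 loaded libraries, with the mean and SD as a bar; each panel has its own axis from 0. Gstt3 stood at 7.64 to 8.08 CPM in control and 0.982 to 1.68 CPM in loaded libraries, and the groups of Gstt1, Gclm, Gpx3 and Gpx4 overlapped.

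Theta-class transferases act on small halogenated compounds and on epoxides and peroxides. Gstt3 (ENSRNOG00000001242) was covered by 267, 263 and 316 reads in control 1 to 3, but by 31, 28 and 58 in loaded 1 to 3. These are 7.64, 7.68 and 8.08 CPM against 0.99, 0.982 and 1.68 CPM. Every loaded library was far below every control library, and loaded 3 was the highest of the loaded ones. The fitted log2 change was -2.66 ± 0.217 (SE), a level 6.34-fold lower in the loaded group, and 63 of the 16447 tested genes had a more negative fitted change.

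Gstt1 (ENSRNOG00000049771), the neighbouring gene in RefSeq order on rat chromosome 20, was counted less often, with 82, 93 and 111 counts in control and 53, 101 and 49 counts in loaded libraries. In CPM it stood at 2.35, 2.72 and 2.84 in control and 1.69, 3.54 and 1.42 in loaded libraries. Loaded 2 was the highest of all 6 libraries and loaded 1 and 3 were the lowest, so the groups overlapped. The fitted log2 change was -0.26 ± 0.311 (SE), and without loaded 2 it was -0.76 and past the threshold.

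Gstt2, the third theta gene, stood at 2.80 ± 0.314 CPM in control and 2.97 ± 0.656 CPM under load (SD, n = 3 each), with a log2 change of 0.09 ± 0.227 (edgeR adjusted p = 0.809). Among the summed FPKM (fragments scaled to gene length and library size, which allows genes to be set side by side) of the 4 theta genes Gstt1 to Gstt4, Gstt3 took 47.5%, 47.9% and 47.7% in control 1 to 3. It took 11.3%, 9.21% and 19.4% in loaded 1 to 3. The summed theta FPKM was 8.36 ± 0.204 in control and 5.04 ± 0.411 in loaded libraries. Other genes close to Gstt3 in RefSeq order went both ways: Ddt, next to it, rose by 0.25 ± 0.0774 on the log2 scale with overlapping groups (adjusted p = 0.0191), and the glutathione-cleaving enzyme Ggt1, 5 genes away, fell by 1.70 ± 0.185 on the log2 scale (adjusted p = 4.43e-06, edgeR for both). Whether reads were shared between the theta genes was not tested.

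**Figure D2:**
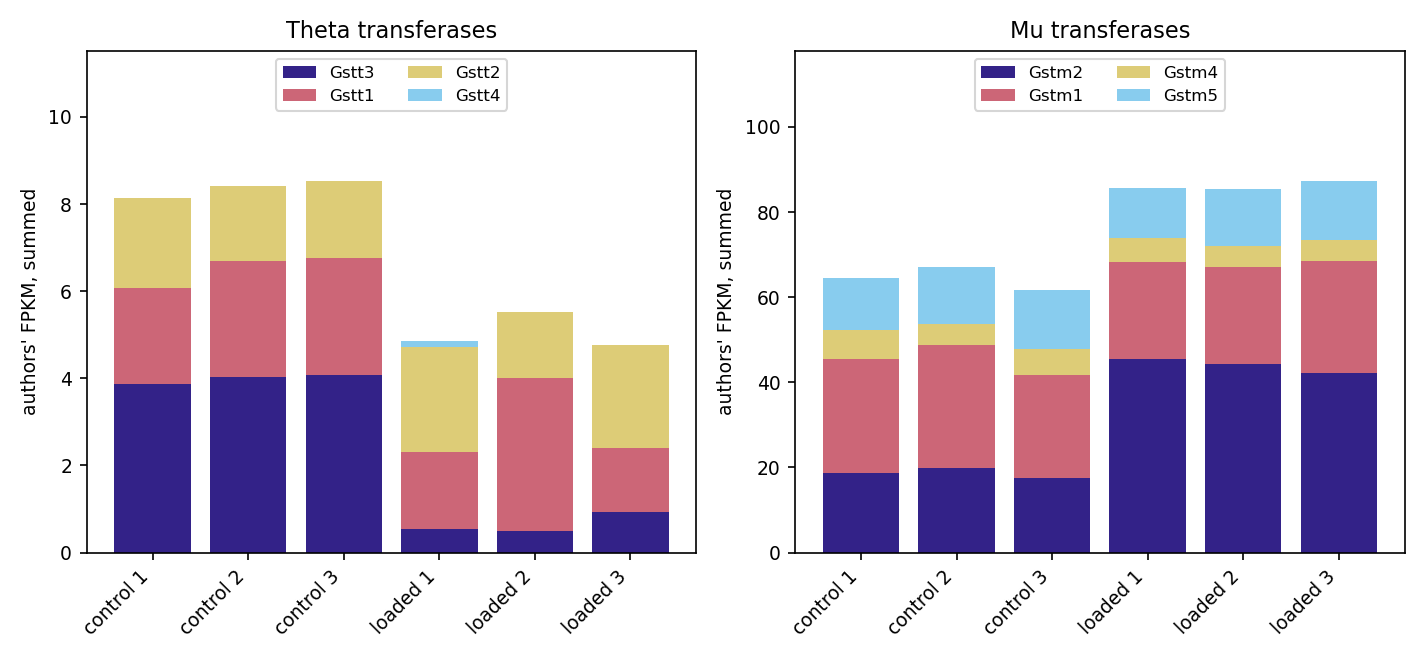
The authors' FPKM summed over the theta genes (left) and the 4 more abundant mu genes (right) in each library, each colour being 1 gene. In loaded libraries the Gstt3 segment shrinks from 47.5% to 47.9% of the theta sum to 9.21% to 19.4%, while the segment of the Gstm2 row widens in the mu sum.

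Mu-class transferases conjugate a broad range of electrophiles and sit together in a gene cluster, on chromosome 2 in the rat. Gstm2 (ENSRNOG00000018937) had 576, 583 and 611 counts in control and 1103, 999 and 1066 counts in loaded libraries, or 16.5, 17.0 and 15.6 against 35.2, 35.0 and 30.9 CPM. All loaded libraries lay above all control libraries, at 2.06 times the control level (log2 change 1.04 ± 0.0826, SE). The table names this row Gstm2, but its protein annotation columns give Gstm7 as the best match, so which of these paralogs was counted is uncertain.

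Gstm1 (ENSRNOG00000029726) had 1151, 1186 and 1175 counts in control and 795, 767 and 1029 in loaded libraries. Its CPM values were 32.9, 34.6 and 30.0 in control and 25.4, 26.9 and 29.8 in loaded libraries, so that control 3 and loaded 3 nearly met. The log2 change was -0.25 ± 0.0813 (SE). Its call was lost in 7 of 14 alternatives: with library totals, with the replicate block, without control 1, control 2, loaded 1 or loaded 2, and without both replicate 2 libraries. In FPKM the groups of Gstm1 overlapped.

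The other mu genes above the count filter did not pass. Gstm4 had a log2 change of -0.27 ± 0.139 (adjusted p = 0.143) and Gstm5 one of -0.09 ± 0.11 (adjusted p = 0.554, edgeR for both). In each library the Gstm2 row over Gstm1 FPKM ratio was 0.706, 0.681 and 0.722 in control and 2.02, 1.95 and 1.604 in loaded 1 to 3, so the order of these genes turned over between the groups. The Gstm2 row took 29.0% ± 0.599 of the summed FPKM of 7 mu genes in control and 50.9% ± 2.72 under load (SD, n = 3 each). The gene length behind the FPKM of this row was shorter by 7.94% in loaded libraries, which raises both the ratio and the share there.

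Glutamate-cysteine ligase has a catalytic subunit, Gclc, and a modifier subunit, Gclm, that raises its affinity for substrate. Gclc (ENSRNOG00000006302) stood at 62.1, 60.8 and 62.1 CPM in control and 49.7, 43.7 and 46.1 CPM in loaded libraries. Control libraries agreed within a coefficient of variation of 1.23%, and all loaded libraries were below them (log2 change -0.41 ± 0.0574, SE). Gclm (ENSRNOG00000013409) stood at 72.96, 71.7 and 72.1 CPM in control and 62.9, 72.6 and 70.4 CPM in loaded libraries. Only loaded 1 was well below the controls, the groups overlapped, and the log2 change was -0.07 ± 0.0578 (SE). The Gclm over Gclc FPKM ratio was 2.41, 2.42 and 2.38 in control and 2.59, 3.41 and 3.13 in loaded libraries, higher in every loaded library than in any control.

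Nqo1 (ENSRNOG00000012772), which reduces quinones and is a standard readout of Nrf2 activity, stood at 34.5, 28.6 and 34.9 CPM in control and 25.97, 27.5 and 23.2 CPM in loaded libraries. Control 2 was close to loaded 2, but the groups did not overlap (log2 change -0.36 ± 0.0913, SE). Txnrd1 (ENSRNOG00000009088), the cytosolic selenoenzyme that recharges thioredoxin, stood at 75.5, 78.4 and 76.7 CPM in control and 58.6, 52.2 and 53.9 CPM in loaded libraries. The loaded level was lower by 28.6% in the fit (log2 change -0.49 ± 0.0554, SE), with a wide gap between the groups.

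The selenium-dependent peroxidases were the most abundant members. Gpx3 (ENSRNOG00000052564), a secreted form, stood at 361.6, 366 and 375 CPM in control and 364, 362 and 350 CPM in loaded libraries. Gpx4 (ENSRNOG00000013604), which reduces lipid hydroperoxides in membranes and protects from ferroptosis, stood at 227, 203 and 228 CPM in control and 206, 248.8 and 226 CPM in loaded libraries. The groups overlapped for both genes, with log2 changes of -0.04 ± 0.0378 for Gpx3 and 0.05 ± 0.07 for Gpx4 (SE). The sign of the Gpx3 change turned with library totals, and that of Gpx4 without control 2, without loaded 2 and without both replicate 2 libraries.

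**Figure D3:**
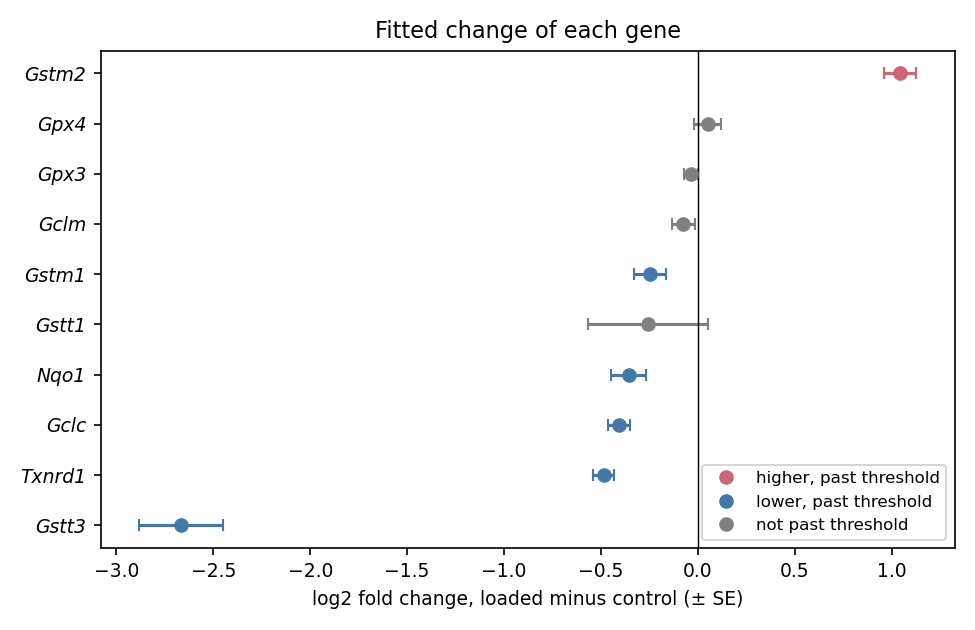
Fitted log2 fold change of each gene, loaded minus control, with its SE; colour shows the direction of those past the threshold. Gstt3 at -2.66 and Gstm2 at 1.04 lie outside the range of the other 8 genes, which run from -0.49 to 0.05.

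By length-adjusted level in the control libraries, Gpx3 at 228 ± 5.74 and Gpx4 at 227 ± 10.1 FPKM came first and did not differ beyond their spread. Gclm followed at 44.4 ± 0.757 FPKM and Gstm1 at 26.6 ± 2.41 FPKM. Txnrd1 stood at 20.6 ± 0.839 FPKM. Nqo1 at 18.9 ± 1.68, the Gstm2 row at 18.7 ± 1.15 and Gclc at 18.5 ± 0.175 FPKM overlapped as neighbours in this order. Gstt3 at 3.99 ± 0.109 and Gstt1 at 2.52 ± 0.266 FPKM were the lowest (SD, n = 3 each). In loaded libraries the Gstm2 row, at 44.0 ± 1.74 FPKM, was beside Gclm at 44.9 ± 2.47 FPKM, and Gstt3, at 0.661 ± 0.23 FPKM, was below Gstt1 at 2.25 ± 1.10 FPKM. The gene length behind the FPKM of the Gstm2 row was shorter by 7.94% in loaded libraries, which raises its place there.

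The 5 genes whose centred log2 CPM lay nearest to that of Gstt3 over the 6 libraries, among 10016 candidates with a mean of at least 5 CPM, were Pck1, Nnat, Plin1, Stab2 and Lyc2, at root mean square differences of 0.28 to 0.48 on the log2 scale. They were picked for likeness to Gstt3 in these same libraries, so their lower loaded levels follow from the choice and are not separate evidence. Nnat fell from 9.63 ± 1.06 to 2.41 ± 0.955 CPM and Lyc2 from 379 ± 17.7 to 35.4 ± 3.83 CPM (SD, n = 3 each). Stab2 fell from 11.4 ± 1.11 to 3.11 ± 0.179 CPM and is on the endothelial marker list, where 2 rose and 2 fell of 7. Pck1, a gluconeogenesis enzyme, stood at 13.5, 14.1 and 13.9 CPM in control and 3.03, 2.49 and 3.71 CPM in loaded libraries, and Plin1, a coat protein of fat droplets, at 9.82, 10.1 and 9.92 against 1.56, 2.88 and 3.80 CPM. Both are on the list of 9 adipocyte markers, of which 7 fell and none rose. That list took 0.0228% to 0.0248% of counts in control and 0.0124% to 0.0141% in loaded libraries, with no marker at 0. Fabp4, a fatty acid carrier, made up most of that sum and fell from 127.5 ± 5.11 to 88.6 ± 6.44 CPM, a log2 change of -0.52, while the median log2 change of the list was -1.26 and the fat hormone gene Adipoq fell from 54.0 ± 1.62 to 13.3 ± 2.42 CPM, a log2 change of -2.02. The part of fat cells or endothelial cells in the lower Gstt3 level was not tested.

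All 12 skeletal muscle markers, none at 0, rose, from 0.801% to 0.823% of counts in control to 2.00% to 2.01% in loaded libraries, and 8 of 9 osteoblast markers, none at 0, rose with 1 fall, from 0.302% to 0.312% to 0.602% to 0.632%. Mast cell, basophil and eosinophil markers took 0.184% to 0.192% of counts in control and 0.350% to 0.352% in loaded libraries. Prg2 and Epx made up most of that sum, at 1449 and 373 CPM in control and 2551 and 660 CPM in loaded libraries. Of these 9 markers, 8 rose and 1 fell. Fibroblast and synovium markers took 0.0680% to 0.0725% and 0.0983% to 0.102% (4 rose and 1 fell of 8). B cell markers took 0.0194% to 0.0201% and 0.0243% to 0.0259% (2 rose and 1 fell of 8). Cartilage markers, given above, were also higher (8 rose and 2 fell of 16). The part of any of these cells in the higher level of the Gstm2 row was not tested.

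**Figure D4:**
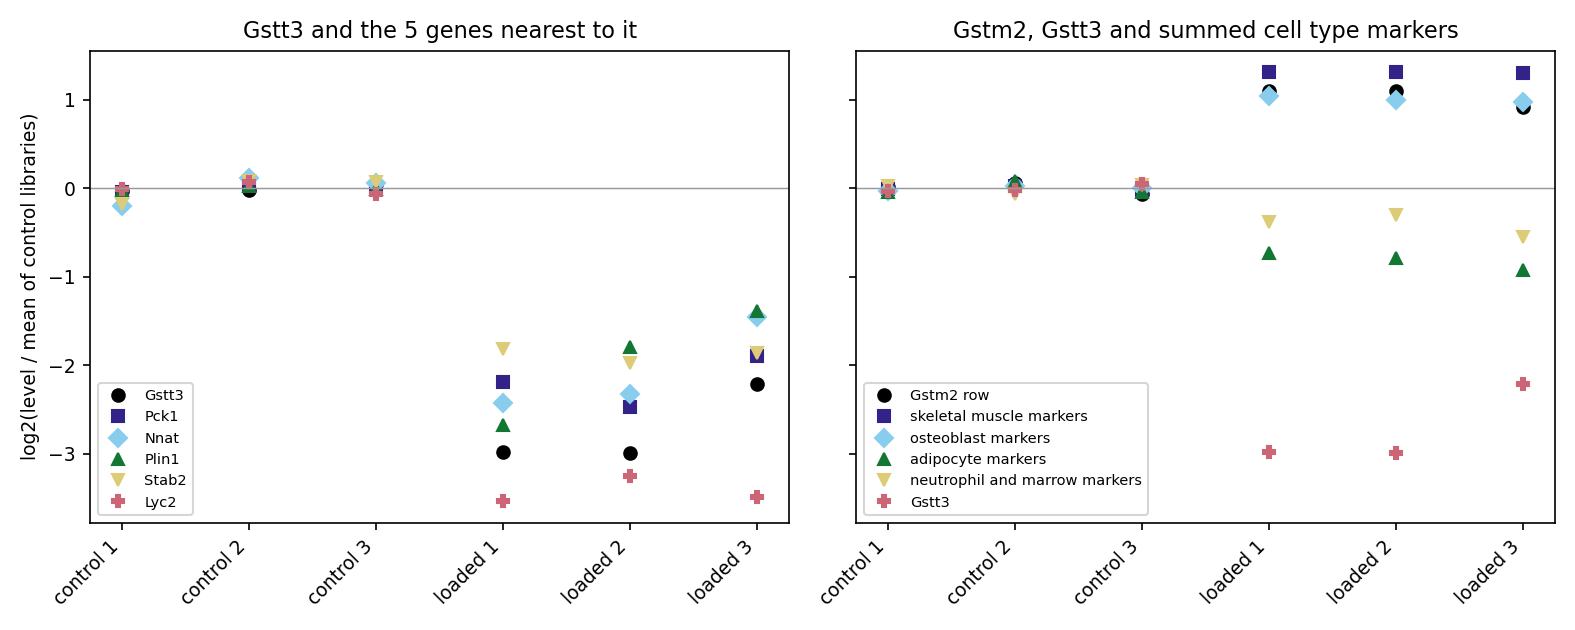
Level of each gene or summed marker list in each library, as log2 of its ratio to the control mean (CPM for genes, percent of counts for marker lists). Left, Gstt3 with the 5 genes nearest to it; right, the Gstm2 row beside muscle and osteoblast markers, and Gstt3 beside the summed adipocyte markers, to which Fabp4 contributes most, and the summed neutrophil and marrow markers.

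Beyond the 10 genes, 139 genes of glutathione and redox metabolism were listed by family and function, of which 132 were matched and 118 tested. Of these, 21 rose and 32 fell (44.9% passed, against 35.8% of all tested genes), with a median log2 change of -0.04. With library totals in place of TMM scaling 28 rose and 24 fell, so the balance of directions depends on the scaling. The medians of the other transferases and of glutathione supply, -0.04 and -0.01, then turned to 0.04 and 0.06. Counts in the single lists below stand beside 17.9% of all tested genes that rose and 18% that fell with TMM scaling. With library totals, 3578 of all 16447 tested genes rose and 2074 fell.

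Nfe2l2, which encodes Nrf2, fell from 73.5 ± 1.69 to 51.3 ± 2.03 CPM (log2 change -0.52 ± 0.0526 SE, adjusted p = 2.19e-06, edgeR), lower in 3 of 3 loaded libraries. Its inhibitor Keap1 stood at 36.5 ± 1.254 and 38.3 ± 1.56 CPM (adjusted p = 0.411). Among 12 tested regulators 3 rose and 3 fell (3 and 1 with library totals): Nfe2l1, a relative of Nrf2, rose by 0.58 ± 0.0998 on the log2 scale, the autophagy receptor Sqstm1 by 0.20 ± 0.0387 and the ubiquitin ligase scaffold Cul3 by 0.18 ± 0.0487.

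Of 23 other enzymes and transporters linked to Nrf2, 5 rose and 6 fell (47.8% passed, against 35.8% of all tested genes), and 5 rose and 5 fell with library totals. The haem-degrading enzyme Hmox1 fell from 149 ± 4.47 to 98.6 ± 5.58 CPM (adjusted p = 4.74e-07, edgeR) and the pentose phosphate enzyme Taldo1 from 783 ± 15.6 to 646 ± 11.3 CPM (adjusted p = 1.43e-05). In the opposite direction the aldehyde dehydrogenase Aldh1a1 rose from 3.47 ± 0.425 to 22.2 ± 0.637 CPM, a log2 change of 2.67 ± 0.12 (adjusted p = 3e-10), and Aldh3a1 from 0.595 ± 0.142 to 3.17 ± 0.509 CPM (adjusted p = 1.42e-05, edgeR).

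Other transferases mostly did not pass (1 rose and 2 fell of 14 tested, 3 and 2 with library totals). The exception in size was Mgst1, a membrane-bound transferase with peroxidase activity, which fell from 925, 898.5 and 875 CPM in control to 426, 427 and 416 CPM in loaded libraries (log2 change -1.09 ± 0.0356 SE, adjusted p = 8.75e-12, edgeR). Gstp1 rose (93.5 ± 2.76 to 119 ± 5.36 CPM, adjusted p = 8.89e-05) and Gsto1 fell from 46.1 ± 0.261 to 38.2 ± 1.16 CPM (adjusted p = 0.00163, edgeR).

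Genes of the glutathione supply list, which also holds glutaredoxins, fell more often than they rose in TMM scaling (3 rose and 7 fell of 19, and 3 and 4 with library totals). The glutaredoxins Glrx and Glrx5 fell by 0.45 ± 0.0436 and 0.35 ± 0.0477 on the log2 scale. Ggt1 fell from 10.0 ± 0.556 to 3.07 ± 0.884 CPM. Glutathione reductase Gsr (-0.13 ± 0.0462, adjusted p = 0.0367) and the cystine carrier Slc7a11 (-0.73 ± 0.267, adjusted p = 0.0443, edgeR) passed narrowly, and their calls were lost in 5 and 9 of 14 alternatives, where the adjusted p reached 0.434 and 0.244.

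Among genes that remove peroxide and superoxide, 4 rose and 6 fell of 14, and with library totals 5 rose and 4 fell. Gpx1, the abundant cytosolic peroxidase, fell from 2055 ± 123 to 1627 ± 127 CPM (adjusted p = 0.00625), Prdx5 from 557 ± 31.1 to 361 ± 17.2 CPM and superoxide dismutase Sod1 from 222 ± 13.1 to 164 ± 13.5 CPM. Catalase (Cat) fell by 0.24 ± 0.0596 on the log2 scale, a call lost with library totals (adjusted p = 0.0595, where the range over alternatives was 0.0016 to 0.0595). Prdx2, abundant in red cells, was up from 785 ± 8.77 to 976 ± 61.6 CPM (adjusted p = 3.7e-05, edgeR), and Gpx7, a peroxidase of the endoplasmic reticulum, from 11.04 ± 0.27 to 19.2 ± 1.11 CPM (adjusted p = 1.47e-05). Of the 8 erythroid markers, 1 rose and 3 fell, and the part of red cells in the Prdx2 level was not tested. Sod2 stood at 212 ± 10.1 and 194.5 ± 4.99 CPM (adjusted p = 0.0529, edgeR). It passed in 4 of 14 alternatives, and over all 14 the adjusted p ran from 0.0175 to 0.47.

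In the thioredoxin and methionine sulfoxide list 2 rose and 3 fell of 11: Msra fell by 0.64 ± 0.09, Msrb1 by 0.18 ± 0.0366 and Txnip, an inhibitor of thioredoxin, by 0.19 ± 0.0419 on the log2 scale, the last not with library totals (adjusted p = 0.0709, where the range over alternatives was 0.000108 to 0.0709). Nucleoredoxin (Nxn) rose by 0.70 ± 0.128. Of 17 tested selenoprotein genes and makers of selenoproteins 3 rose and 1 fell (6 and 1 with library totals): Selenow and Selenom rose by 0.55 ± 0.0967 and 0.53 ± 0.116, and Selenon fell by 0.54 ± 0.122, a call lost without both replicate 2 libraries (adjusted p = 0.054, where the range over alternatives was 0.000408 to 0.054). Pstk, a kinase that acts on the serine-loaded selenocysteine tRNA, rose by 0.20 ± 0.0602, a call lost in 3 of 14 alternatives. In the lipid peroxidation list 4 of 8 fell and none rose (1 rose with library totals): the lipoxygenases Alox12 (63.8 ± 1.70 to 33.7 ± 3.73 CPM) and Alox5 (107 ± 1.71 to 81.1 ± 4.89 CPM), the phospholipid remodelling enzyme Lpcat3 and Gch1, which makes a lipid-protecting cofactor.

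Neutrophil and marrow markers were lower in the same libraries: of 10 tested, 7 fell and 1 rose, and all 11, none at 0 over the 6 libraries, took 4.52% to 4.85% of counts in control and 3.24% to 3.83% in loaded libraries. Of 10 monocyte and macrophage markers, none at 0, 4 rose and 5 fell, and they took 1.51% to 1.58% and 1.15% to 1.23% of counts. Lyz2 made up most of that sum and fell from 15060 ± 213 to 10740 ± 117 CPM (SD). The 4 that rose were Cd68, C1qa, C1qb and C1qc, so the summed share mainly follows Lyz2. The part of neutrophils, other marrow cells, monocytes and macrophages in the lower Gclc, Txnrd1, Nqo1, Gstm1, Nfe2l2, Mgst1 and Alox12 levels was not tested.

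**Figure D5:**
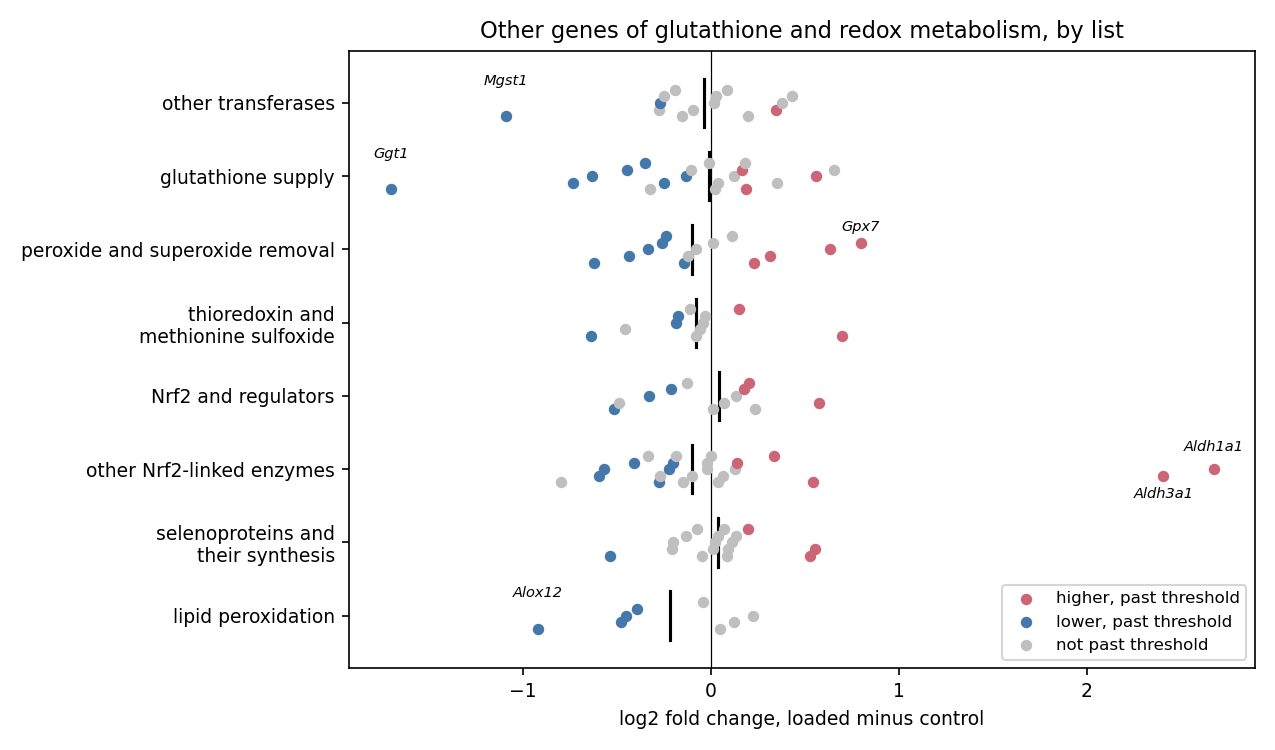
Fitted log2 fold change, loaded minus control, of the tested genes in each of 8 lists; each point is 1 gene, colour marks those past the threshold and the black line is the median of the list. Medians lie between -0.22 and 0.04, the lowest gene is Ggt1 at -1.70 and the highest are Aldh3a1 at 2.41 and Aldh1a1 at 2.67.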

How the data were processed

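Libraries made from total RNA with an mRNA kit, 3 control and 3 loaded, were deposited as 1 table. Its counts are the authors' raw whole numbers per gene, and its FPKM values were computed by the authors for each library (both per the file headers). HISAT2, DESeq2 and the mouse build mm10 are named in the submitters' processing notes, without versions. The identifiers are rat Ensembl genes, so the build is uncertain and no coordinates come from the files. Counter, annotation and strand setting were not given in the sources used here, so overlapping antisense genes and near-identical paralogs cannot be told apart. Of 26991 lines, 10 spilled annotation pieces were dropped.

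Counts were fitted with edgeR 4.0.16 (R 4.3.3): filterByExpr on the group (16447 genes kept), TMM (factors 0.961 to 1.05), robust quasi-likelihood F test, no block, Benjamini-Hochberg adjustment over all genes, threshold 0.05. SE is the log2 change over the square root of F. CPM values use TMM-scaled totals, likeness to Gstt3 uses log2 CPM with a prior count of 2, and FPKM entered no test. A count of 0 allows up to 0.0744 to 0.106 CPM on unscaled library totals, for counting error only. With 3 against 3 libraries an exact two-sided permutation p cannot be below 0.1, so none is given.

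The members, lists and naming rule were chosen with earlier results of these data known. Named are all 10 members, up to 4 called genes per list by smallest adjusted p, 9 further genes whatever their result (among them Nfe2l2, Keap1, Gsr and Gstt2), and the 5 genes nearest to Gstt3. A gene that this rule names is not reported here. Ddt, Fabp4, Adipoq, Lyz2, Cd68, C1qa, C1qb, C1qc, Prg2, Epx and the mu genes Gstm4 and Gstm5 were named after their values were seen. Of 252 listed pathway and marker symbols, 238 were matched by name or older symbol. Marker lists for mast cells, basophils and eosinophils (together), endothelium, fibroblasts and synovium, and B cells were also computed: 8 rose and 1 fell of 9, 2 rose and 2 fell of 7, 4 rose and 1 fell of 8, and 2 rose and 1 fell of 8. The pipeline was tested on simulated data. Promoter sequences are from RefSeq (GRCr8), matched by symbol for 9 of 10 members. Alternatives were RLE size factors, library totals, DESeq2 1.42.0, limma-voom (limma 3.58.1), no filter, a stricter filter (1 CPM in 3 libraries), a replicate block, omission of each library in turn and, chosen after seeing the data, leaving out both replicate 2 libraries.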

Additional observations from a re-analysis of the deposited data

How the results depend on the processing

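Across 14 alternatives, 4645 to 5974 genes of the whole table changed, 5 to 6 of the 10 genes and 47 to 56 genes of the pathway lists. Leaving out 1 library at a time gave 4645 to 5614, 5 to 6 and 47 to 53. Gstt3, the Gstm2 row, Gclc, Nqo1 and Txnrd1 kept their direction and passed the threshold in all 14, with Gstt3 between -2.98 and -2.53 and the Gstm2 row between 1.01 and 1.10 with 1 library left out (log2). Gclm kept its sign and never passed. The call of Gstm1 was lost with library totals (-0.17), with the replicate block (-0.25), without both replicate 2 libraries (-0.19) and in 4 of the 6 fits that leave out 1 library, which ranged from -0.32 to -0.20. Gstt1 ranged from -0.76 to -0.0185 and passed without loaded 2. Gpx3 turned to 0.0389 with library totals. Gpx4 ranged from -0.0209 to 0.11, negative without control 2 (-0.0067) and loaded 2 (-0.0209), and was -0.0757 without both replicate 2 libraries. The cause was not tested.

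Libraries with the same replicate number did not deviate together (correlations of -0.0139, 0.0462 and 0.0207), so the numbers are not taken as pairs. With the replicate block 5349 genes changed in all, 5 of the 10 and 49 of the pathway lists. Library totals moved rises from 49.9% to 63.3% of all calls and from 39.6% to 53.8% of the pathway calls. Gstt3 rests on 28 to 58 counts in loaded libraries and Gstt1 on 49 to 111 counts in all 6, which limits how finely either can be read.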

Other observations

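The gene length implied by the ratio of counts to the authors' FPKM differed between the groups for the Gstm2 row. It was 853 ± 11.5 bases in control and 786 ± 29.8 bases in loaded libraries (SD, n = 3 each), shorter by 7.94%. For the other 9 genes it moved by -1.33% to -0.336%. The loaded over control ratio of the Gstm2 row was 2.35 in FPKM and 2.06 in CPM. The FPKM ratio was also above the CPM ratio for genes whose implied length moved little, such as Gpx4 (1.10 and 1.04). CPM uses totals scaled by TMM factors, 0.961 to 0.992 in control and 1 to 1.05 in loaded libraries. The implied length uses unscaled totals, so this difference in scaling enters every such pair of ratios.

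Among further neighbours of Gstt3 on chromosome 20, Susd2, 3 genes away, rose by 1.00 ± 0.307 on the log2 scale (adjusted p = 0.0194, edgeR). Cabin1, 2 genes away, had a log2 change of 0.20 ± 0.0814 (adjusted p = 0.0708, edgeR). Both genes were named after their values were seen.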
